A study of Mus musculus with 250 samples.

Results

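The liver of mice bearing a breast tumor was compared with the liver of matched tumor-free mice, using every array of whole liver tissue in the series, 50 of its 250 arrays. The comparison asks how the liver, an organ away from the tumor, differs when a breast tumor is present. The tumor-bearing group (25 mice) was bitransgenic for MMTV-rtTA and TetO-NeuNT. In this model the MMTV promoter drives the doxycycline-dependent activator in mammary epithelium, and the activator switches on NeuNT, an activated form of the Her2/Neu receptor. The control group (25 mice) consisted of littermates that carried TetO-NeuNT without the activator. Because no control carried the activator, effects of the tumor, of the activator and of switched-on NeuNT cannot be told apart here. All 50 mice were female FVB mice, and the controls share the drug and the silent transgene, since drinking water held doxycycline at 2 mg/mL and sucrose at 5% for both groups once they were 8 weeks old. Livers were snap-frozen when the tumor of the pair measured about 1 cm. The labels tie each tumor-bearing mouse to a control of like age from its cage, giving 25 pairs. The age of each mouse at collection was not used here.

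The liver makes most plasma proteins, and in inflammation its hepatocytes shift to acute phase proteins. The cytokine IL-6 and its relatives act through the shared receptor subunit gp130 and the transcription factor STAT3, which induces these proteins together with its own inhibitor, Socs3. Hepatocytes also oxidise fatty acids under the nuclear receptor PPAR alpha, make bile acids, and detoxify compounds with cytochrome P450 and conjugating enzymes. Neutrophils are made in the bone marrow, and in mice also in spleen and liver under demand, and they fill their granules in an order that separates immature from mature cells.

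RNA was hybridised to Affymetrix whole-genome mouse arrays, and 18193 genes were tested with 1 probe set per gene. Values are log2 probe set intensity, and a change is the log2 difference, tumor-bearing minus matched control, with its standard error (SE) over pairs. Genes were called at an adjusted p under 0.05 (limma with the pair as a block, Benjamini-Hochberg over all 18193 genes), and "rose" and "fell" are used for called genes. The control arrays of 2 pairs stood apart from all the others. The control array of pair 2 correlated at 0.33 with the median liver array and that of pair 7 at 0.82, against 0.961 to 0.997 for the other 48 arrays. The pair 2 array was no closer to the median array of the spleen (0.262), blood (0.258), thymus (0.263) or breast (0.275). Its 3'/5' signal ratio was 0.94 for Gapdh and 1.86 for actin on the log2 scale, where the other 48 arrays ran from -0.21 to -0.06 and from 0.49 to 1.05. For pair 7 the ratios were 0.06 and 1.23. The main results are therefore given over all 25 pairs and over the 23 pairs without these arrays. Over 23 pairs the ratios of the groups differed by 0.00043 ± 0.007 for Gapdh and by -0.0048 ± 0.023 for actin (two-sided permutation test over pairs, both adjusted p = 0.954).

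The tissue label was checked against 12 hepatocyte genes. Alb, serum albumin, lay between 14.81 and 15.05 on the 48 arrays, and Ttr, the thyroxine carrier transthyretin, between 14.28 and 14.69. On the pair 2 control array Alb read 14.53, whereas Apob, the structural protein of very low density lipoprotein, read 7.88 against 11.23 to 13.5 elsewhere. The mouse Erbb2 probe set, the homologue of the transgene, was low in both groups. It ran from 4.81 through a median of 5.03 to 5.53 in tumor-bearing and from 4.77 through 5.13 to 5.91 in control livers, with a change of -0.09 ± 0.06 (adjusted p = 0.411) over 25 pairs and -0.07 ± 0.05 (adjusted p = 0.268) over 23.

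Over 25 pairs 1436 genes rose (7.89% of those tested) and 415 fell (2.28%). Over 23 pairs 2484 rose (13.7%) and 3027 fell (16.6%). Every count from a gene list below is to be read beside these shares. All 1436 and all 415 were among the calls over 23 pairs, where they made up 57.8% of the rises and 13.7% of the falls. The balance of the calls therefore turned with the 2 arrays: 77.6% of the calls were rises over 25 pairs and 45.1% over 23. The balance over 25 pairs also moved with the scaling, to 1175 rises and 741 falls after quantile normalization and to 1034 of each after centring each array on its median. Large changes were mostly rises at either number of pairs. Of the called genes, 182 rose and 42 fell by 1 or more over 25 pairs, and 146 and 57 did so over 23. The median called rise was 0.3 and the median called fall -0.25 over 23 pairs, while the median change of all genes was -0.01. In the 23 pairs every tumor-bearing liver lay above every control liver for 44 genes (0.242%) and below for 24 (0.132%).

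**Figure D1:**
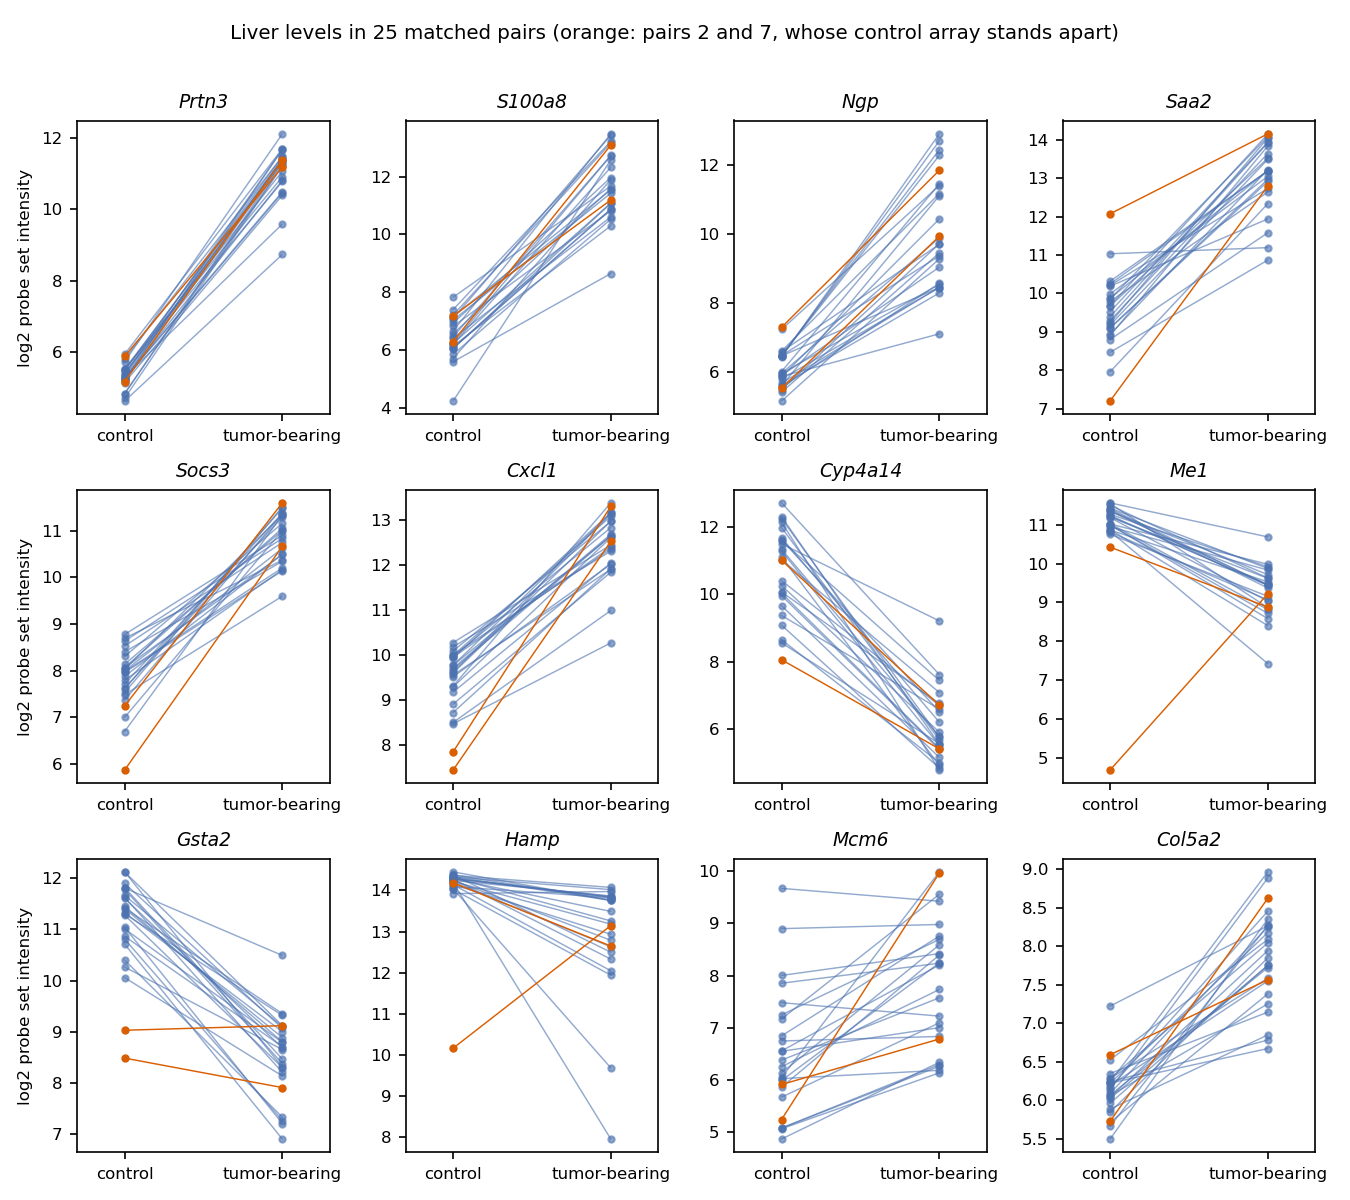
Level of 12 genes in every liver, as log2 probe set intensity, with a line joining the control (left) and tumor-bearing (right) mouse of each of 25 pairs and orange for pairs 2 and 7. Prtn3, S100a8, Saa2, Socs3 and Cxcl1 were higher in the tumor-bearing mouse of all 25 pairs and Cyp4a14 lower in all 25, whereas the fall of Hamp was largest in 2 pairs and Me1 ran against the others in pair 2.

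Among the largest changes were rises of neutrophil genes. Many of these belong to granules, the stores of proteases and antimicrobial proteins that neutrophils release. Of 7 genes of early granules, made in immature cells, 5 rose over 25 pairs and 6 over 23, with a median change of 1.49 over 23. Of 20 genes of late granules and the mature cell surface, 15 rose over 25 pairs and 18 over 23, with a median of 1.40. None of either list fell. Because whole liver was measured, fewer cells of a type and less RNA per cell cannot be told apart, here or in any result below.

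Prtn3 encodes proteinase 3, a serine protease of early granules. Its level ran from 8.73 through a median of 11.31 to 12.11 in tumor-bearing livers and from 4.62 through 5.29 to 5.93 in controls. The groups did not overlap, and the lowest tumor-bearing liver was well above the highest control. The change was 5.75 ± 0.12, or 53.8-fold (adjusted p = 1.78e-23), over 25 pairs and 5.75 ± 0.13 over 23. Mpo, myeloperoxidase, a heme enzyme of the same granules, rose by 2.31 ± 0.26. The proteases Elane, neutrophil elastase, and Ctsg, cathepsin G, rose by 1.58 ± 0.19 and 1.53 ± 0.26. Prtn3 thus rose far more than these, and its change varied less between pairs than that of Mpo (SD 0.64 against 1.4). The levels of Mpo overlapped slightly, with 5.31 to 10.03 in tumor-bearing livers and 4.54 to 5.44 in controls. Gfi1, a transcription factor of granulocyte precursors, did not pass (0.02 over 25 pairs, 0.10 over 23).

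S100a8 and S100a9 encode the subunits of calprotectin, an abundant cytosolic protein of neutrophils. S100a8 ran from 8.65 through 11.58 to 13.47 in tumor-bearing livers and from 4.25 through 6.41 to 7.83 in controls, with no overlap, and rose by 5.25 ± 0.23, or 38.0-fold (adjusted p = 7.63e-16). S100a9 rose by 5.03 ± 0.20, again with no overlap. The probe set of S100a8 is marked as shared with related sequence. Lcn2, a siderophore-binding protein that both neutrophils and hepatocytes make, ran from 12.04 through 13.27 to 13.79 against 5.32 through 9.16 to 10.44 and rose by 4.17 ± 0.20 over 25 pairs and 3.99 ± 0.14 over 23. For Lcn2, too, every tumor-bearing liver was above every control. Ngp, neutrophilic granule protein, ran from 7.10 through 9.71 to 12.90 against 5.15 through 5.95 to 7.29 and rose by 4.01 ± 0.26. It was higher in the tumor-bearing mouse of all 25 pairs, although the lowest tumor-bearing liver fell within the control range. Over 23 pairs Ltf, lactoferrin, rose by 2.95 ± 0.29, Chil3, a chitinase-like protein of myeloid cells, by 3.12 ± 0.29 and Camp, the cathelicidin precursor, by 2.76 ± 0.28. Itgb2l and Ltb4r1, a surface integrin and the leukotriene B4 receptor, did not pass at either number of pairs. Averaged over the 20 late genes, the level was 5.91 to 8.55 in tumor-bearing livers and 5.05 to 5.69 in controls.

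Most acute phase genes rose, 18 of 24 over 25 pairs and 24 of 24 over 23, with a median of 0.66 over 23. Saa2, a serum amyloid A that rides on high density lipoprotein, ran from 10.87 through 13.19 to 14.15 in tumor-bearing livers and from 7.20 through 9.52 to 12.07 in controls. The ranges overlapped, but the tumor-bearing mouse was higher in all 25 pairs, with a change of 3.54 ± 0.23, or 11.6-fold (adjusted p = 4.27e-12). Saa1 rose by 2.98 ± 0.21 over 25 pairs and 2.84 ± 0.13 over 23, from a control median of 11.15 to 13.92, with no overlap. The probe set of Saa2 is marked on the array as shared with related sequence, so Saa1 and Saa2 may not be told apart by it. Orm2, an orosomucoid, rose by 3.17 ± 0.21 with groups that did not overlap (11.49 to 14.10 against 8.56 to 11.43). Lrg1, a leucine-rich glycoprotein, rose by 2.00 ± 0.20 over 25 pairs and 1.77 ± 0.06 over 23, also without overlap.

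Hp, haptoglobin, which binds free haemoglobin, rose by 0.80 ± 0.19 over 25 pairs and 0.59 ± 0.04 over 23, and Hpx, the heme carrier haemopexin, by 0.30 ± 0.05 and 0.26 ± 0.03. Lbp, which binds lipopolysaccharide, rose by 1.41 ± 0.19 and 1.20 ± 0.09, and Apcs, serum amyloid P, by 1.08 and 0.88. The fibrinogen chains passed over 23 pairs, with Fga at 0.26, Fgb at 0.29 and Fgg at 0.19. Only Fgg of these passed over 25 pairs, at 0.25.

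Among 24 genes of the IL-6 family and STAT3 signalling, 11 rose over 25 pairs and 12 over 23, and 2 fell over 23. None of the ligands passed: Il6 changed in mean by -0.05, Lif by -0.09, Osm by -0.06 and Il11 by 0.04 over 25 pairs. The receptor subunits did pass. Osmr, the oncostatin M receptor, ran from 7.45 through 8.67 to 9.54 in tumor-bearing livers and from 4.81 through 6.76 to 7.27 in controls. It rose by 1.96 ± 0.13 (adjusted p = 1.23e-11) and 1.87 ± 0.10 with no overlap, while 1 of its 3 probe sets gave 0.05 over 23 pairs. Il6st, which encodes gp130, rose by 1.03 ± 0.22 and 0.75 ± 0.06, and Il6ra, the IL-6 receptor alpha chain, by 0.66 and 0.45. Lifr, the leukemia inhibitory factor receptor, did not pass over 25 pairs (0.07) and fell over 23 (-0.19).

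Stat3 itself ran from 10.80 through 11.35 to 11.69 in tumor-bearing livers and from 5.42 through 10.35 to 10.57 in controls. No tumor-bearing liver was as low as the highest control, and the change was 1.23 ± 0.20 over 25 pairs and 0.98 ± 0.05 over 23 (adjusted p = 9.69e-14). Socs3, which blocks gp130 signalling, ran from 9.60 through 10.90 to 11.59 against 5.87 through 7.96 to 8.78. It rose by 3.02 ± 0.18, or 8.13-fold, with no overlap, and by 2.89 ± 0.16 over 23 pairs. Without probe sets shared with related sequence the Socs3 change over 25 pairs was 2.22. The other suppressors did not pass, with Socs1 at -0.09, Socs2 at 0.12 and Cish at 0.27 over 25 pairs. Of transcription factors in the list, Cebpd rose by 1.36 ± 0.11, with 0.78 as the mean of its 2 probe sets, and Junb by 1.38 ± 0.16. Pias3, a STAT3 inhibitor, fell over 23 pairs (-0.28).

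The promoters of genes from these groups are shown because they hold the short motifs of the factors that act on inflammatory genes. They are the 250 bases before the RefSeq start of each gene in GRCm38.p6, written 5' to 3' on the gene's own strand, with a motif found by search in capitals. The motifs searched on both strands were TTCNNNGAA for STAT (in 7.02% of 32851 promoters of that length), TTGCNNAA for C/EBP (9.56%), GGGA, any base and TTTCC for NF-kB (0.356%) and GGCGCC for the BMP response element (9.59%). The Socs3 window (chr11:117969367-117969616, minus strand) held a STAT match 154 to 146 bases before the start and GGCGCC at 61 to 56. The windows of Saa1 (chr7:46742981-46743230, minus strand) and Saa2 (chr7:46751583-46751832, plus strand) held the same C/EBP letters, starting 182 and 183 bases before the start. The Cxcl1 window (chr5:90890995-90891244, plus strand) held an NF-kB match 71 to 62 bases before the start. A match is a description of the letters and not a shown binding site.
Socs3: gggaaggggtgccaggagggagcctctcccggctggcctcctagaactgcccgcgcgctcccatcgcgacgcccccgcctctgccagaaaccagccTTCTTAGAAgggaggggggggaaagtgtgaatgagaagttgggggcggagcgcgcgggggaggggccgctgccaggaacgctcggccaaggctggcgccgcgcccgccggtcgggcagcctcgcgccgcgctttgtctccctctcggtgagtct
Saa1: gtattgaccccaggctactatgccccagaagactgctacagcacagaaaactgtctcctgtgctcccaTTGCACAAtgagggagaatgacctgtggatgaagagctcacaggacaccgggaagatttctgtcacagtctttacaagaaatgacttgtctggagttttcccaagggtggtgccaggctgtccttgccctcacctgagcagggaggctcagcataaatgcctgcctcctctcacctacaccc
Saa2: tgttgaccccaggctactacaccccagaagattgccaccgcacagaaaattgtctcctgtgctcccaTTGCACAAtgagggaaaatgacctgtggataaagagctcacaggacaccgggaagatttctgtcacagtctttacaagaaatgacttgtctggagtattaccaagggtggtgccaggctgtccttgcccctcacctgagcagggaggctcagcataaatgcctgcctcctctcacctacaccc
Cxcl1: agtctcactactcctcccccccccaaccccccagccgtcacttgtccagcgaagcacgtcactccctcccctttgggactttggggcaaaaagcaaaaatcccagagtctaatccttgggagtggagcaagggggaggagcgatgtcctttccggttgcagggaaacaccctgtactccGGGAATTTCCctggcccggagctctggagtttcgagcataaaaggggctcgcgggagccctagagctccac

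Of the other windows searched, C/EBP letters were found in those of Orm2, Lcn2 and Ngp, which rose, and also in that of Acot1, which fell, with matches starting 143 and 128 bases before the start. C8a held STAT letters, Steap4 held both STAT and C/EBP letters, and none of the 4 motifs was found in the windows of Stat3, Osmr, Lrg1, Prtn3 or Armcx4.

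Of 28 chemokines and cytokines, 9 rose over 25 pairs, and 12 rose and 3 fell over 23. Cxcl1, a chemokine that draws neutrophils, ran from 10.27 through 12.60 to 13.37 in tumor-bearing livers and from 7.45 through 9.62 to 10.27 in controls. The lowest tumor-bearing and the highest control liver were level, and the change was 3.05 ± 0.16 (8.26-fold, adjusted p = 4.7e-14) over 25 pairs and 2.85 ± 0.10 over 23. Il33, an alarmin of stromal cells, rose by 1.37 ± 0.11, Cxcl13, which draws B cells, by 1.28 ± 0.14 and Cxcl14 by 1.24. The Cxcl14 probe set highest in liver gave 3.38 over 25 pairs. Il1b, an inflammasome product, rose by 0.89. Tnf (0.02), Il10 (-0.05) and the granulocyte growth factor Csf3 (-0.16) did not pass over 25 pairs, nor did they over 23. The interferon-gamma induced Cxcl9 did not pass over 25 pairs (-0.22) and fell over 23 (-0.54 ± 0.18), as did the T cell chemokine Ccl5 (-0.36). Among 20 genes of NF-kB feedback and leukocyte adhesion 11 rose over 25 pairs and 13 over 23. Selp, the P-selectin of platelets and endothelium, rose by 2.21 ± 0.17, Cd14, the lipopolysaccharide co-receptor, by 1.02, Icam1 by 0.89 and Vcam1 by 0.80. Nfkbia, the I-kappa-B alpha inhibitor, did not pass (0.21).

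Among 19 complement factors 8 rose over 25 pairs and 15 over 23 (median 0.31 over 23), and none fell. C8a, the alpha chain of a membrane attack component, led: it ran from 12.68 through 13.47 to 13.89 in tumor-bearing livers and from 5.56 through 11.37 to 12.31 in controls. It rose by 2.23 ± 0.25, or 4.68-fold, over 25 pairs and 1.94 ± 0.10 over 23, without overlap. Its partners moved unequally: C8b rose by 1.11 ± 0.21 and C9 by 1.03, whereas C8g did not pass (0.09). Of 23 coagulation factors 5 rose over 25 pairs, and 14 rose and 2 fell over 23. Thbd, thrombomodulin, rose by 0.96 ± 0.16 and Pros1, protein S, by 0.90, both anticoagulant. Over 23 pairs F3, tissue factor, fell (-0.46), as did Klkb1, plasma prekallikrein (-0.24).

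Of 22 iron genes 2 rose and 4 fell over 25 pairs, and 4 rose and 9 fell over 23. Over 23 pairs this was 18.2% and 40.9% of the list, against 13.7% and 16.6% of all genes. The share of rises was thus near that of all genes. Hamp, hepcidin, the liver hormone that closes the iron exporter ferroportin, ran from 7.96 through 13.26 to 14.07 in tumor-bearing livers and from 10.16 through 14.25 to 14.45 in controls. Without the 2 outlying arrays the controls lay between 13.92 and 14.45, and 23 of 25 tumor-bearing mice were below their match. Hamp fell, with a change of -1.15 ± 0.31 (adjusted p = 0.0119) over 25 pairs and -1.31 ± 0.28 over 23. With its other probe set, which is the one highest in liver, the change over 25 pairs was -0.92 and was not called (adjusted p = 0.132). Its largest falls were in pair 8 (-6.24) and pair 17 (-4.36). Over the 23 pairs less pair 8 the change was -1.09 (adjusted p = 0.000126). Without pairs 8 and 17 and the outlying pairs the mean change was -0.93 (SD 0.67, n = 21). Hamp2, the other mouse hepcidin gene, whose probe set is marked as shared with related sequence, fell, with a change of -1.08 ± 0.34 and -1.31 ± 0.29. One of its 2 probe sets gave 0.01 over 23 pairs.

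Hepcidin is induced by BMP6 through SMAD proteins and by IL-6 through STAT3. Bmp6 ran from 4.90 through 5.60 to 6.40 in tumor-bearing livers and from 4.43 through 6.94 to 7.98 in controls, and fell, with a change of -1.26 ± 0.13 (adjusted p = 4.07e-08). It was lower in 23 of 25 pairs. Id1, a target of BMP signalling, fell, with a change of -0.93 ± 0.19 over 25 pairs and -1.14 ± 0.13 over 23. Smad7 (-0.42) and Atoh8 (-0.29), also BMP targets, fell over 23 pairs and did not pass over 25. The upstream genes Hfe, Hjv and Tmprss6 did not pass at either number of pairs. Slc39a14, an importer of zinc and iron, rose by 1.01 ± 0.21 and 0.75 ± 0.05, and the metallothioneins Mt1 and Mt2 rose by 0.97 and 1.63 ± 0.23. Without probe sets shared with related sequence the Mt1 change was 1.63. The hepcidin promoters are shown because each route has a short motif that was searched for, with STAT letters in capitals. In the Hamp window (chr7:30944030-30944279, minus strand) the STAT letters lay 97 to 89 bases before the start, and GGCGCC lay just before them at 109 to 104. The Hamp2 window (chr7:30924182-30924431, minus strand) held the same STAT letters at 94 to 86 and no GGCGCC.
Hamp: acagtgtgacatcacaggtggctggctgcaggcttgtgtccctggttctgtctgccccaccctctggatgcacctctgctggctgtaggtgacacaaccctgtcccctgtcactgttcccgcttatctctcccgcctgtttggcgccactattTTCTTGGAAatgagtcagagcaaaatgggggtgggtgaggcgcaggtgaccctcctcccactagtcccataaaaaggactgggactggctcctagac
Hamp2: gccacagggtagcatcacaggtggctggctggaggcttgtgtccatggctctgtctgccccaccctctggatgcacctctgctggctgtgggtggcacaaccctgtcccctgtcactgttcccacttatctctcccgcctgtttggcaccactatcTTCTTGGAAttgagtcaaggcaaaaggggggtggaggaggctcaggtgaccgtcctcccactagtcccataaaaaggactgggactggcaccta

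Some of the 15 largest falls, the largest among them, were in genes of fatty acid oxidation that PPAR alpha is known to induce. Of 31 genes of this list 10 fell and 1 rose over 25 pairs, and 25 fell and 1 rose over 23, with a median of -0.45 over 23. Cyp4a14, a microsomal fatty acid omega-hydroxylase, ran from 4.79 through 5.76 to 9.21 in tumor-bearing livers and from 8.06 through 11.02 to 12.70 in controls. It was lower in the tumor-bearing mouse of all 25 pairs, with a small overlap of the groups, and fell, with a change of -4.63 ± 0.25, or 24.8-fold (adjusted p = 1.27e-13). Over 23 pairs the change was -4.73 ± 0.26. Acot1, a cytosolic acyl-CoA thioesterase, ran from 4.14 through 5.07 to 7.26 against 5.68 through 8.39 to 9.87 and fell, with a change of -3.06 ± 0.18, also in all 25 pairs. Its peroxisomal relatives Acot3 and Acot4 fell, with a change of -2.48 ± 0.33 and -1.11 over 25 pairs and by -2.72 ± 0.25 and -1.29 over 23. In the 23 pairs neither gene overlapped between the groups. The probe set of Acot3 is marked as shared with related sequence.

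Ehhadh, the peroxisomal bifunctional enzyme, did not pass over 25 pairs (-0.68 ± 0.26, adjusted p = 0.0983), where its lowest control value was 6.42. Without those arrays the controls ran from 12.37 to 13.14 against 10.87 to 12.35 in tumor-bearing livers, and it fell, with a change of -0.97 ± 0.08 (adjusted p = 1.87e-10) without overlap. The mitochondrial enzymes fell less over 23 pairs and did not pass over 25. Examples are Cpt2 (-0.63), which passes acyl groups into the matrix, Acadl (-0.46) and Hadhb (-0.36). Cpt1a, the entry step, did not pass (-0.04 over 23 pairs), and neither did Ppara itself (-0.16). Fgf21, a hormone induced by PPAR alpha in fasting, did not pass either (0.19). Vnn1, a pantetheinase, was the only member that rose (0.97 ± 0.25 and 0.82 ± 0.24). In the ID runs described further on, its change was 1.35 in the 15 later and -0.17 in the 8 earlier pairs, and this difference was not called.

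Genes of lipid synthesis fell mainly over 23 pairs. Of 23 genes of fatty acid synthesis 1 fell over 25 pairs and 16 over 23, with a median of -0.36. Me1, malic enzyme, which supplies NADPH, ran from 7.42 through 9.44 to 10.69 in tumor-bearing livers and from 4.68 through 11.19 to 11.57 in controls. Without the outlying arrays the controls began at 10.76, so the groups did not overlap. It fell, with a change of -1.59 ± 0.26 and -1.86 ± 0.11. Fasn, fatty acid synthase (-0.70), Acacb (-0.91), Elovl6 (-0.87), Thrsp (-0.84) and the carbohydrate sensor Mlxipl (-0.66) fell over 23 pairs only. Scd1 (-0.13) and Srebf1 (0.00) did not pass at either number of pairs. Of 20 genes of cholesterol synthesis none passed over 25 pairs, and 8 fell and 1 rose over 23. Hmgcs1 (-0.04) did not pass, and Sqle, squalene epoxidase, rose (0.29). Of 12 lipid droplet genes 1 fell over 25 pairs, and 6 fell and 1 rose over 23. G0s2, an inhibitor of adipose triglyceride lipase, fell at both numbers of pairs (-0.82 and -1.08). Of 22 genes of lipoprotein handling 2 rose and 1 fell over 25 pairs, and 6 rose and 6 fell over 23. Over 23 pairs this was 27.3% each way, against 13.7% and 16.6% of all genes. Lpl, lipoprotein lipase, rose by 1.07 ± 0.18, and Lipg, endothelial lipase, fell, with a change of -1.10 ± 0.20. Apob (0.05), Apoe (-0.08) and Apoa1 (0.07) did not pass over 23 pairs.

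Of 21 genes of bile acid synthesis and transport 3 fell over 25 pairs and 16 over 23 (median -0.32), and none rose. Cyp7b1, the oxysterol hydroxylase of the alternative pathway, fell, with a change of -1.25 ± 0.21 and -1.44 ± 0.15, while 1 of its 3 probe sets gave -0.02 over 23 pairs. Cyp7a1, the first enzyme of the classical pathway, fell over 23 pairs only (-0.62). So did Cyp27a1 (-0.68), the uptake carrier Slc10a1 (-0.35) and the export pump Abcb11 (-0.24). Cyp8b1, which sets the share of cholic acid, did not pass (0.16).

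Of 37 drug-metabolising cytochrome P450 genes and their regulators 7 fell and 1 rose over 25 pairs, and 28 fell and 1 rose over 23, with a median of -0.34. Cyp17a1, a steroid 17-hydroxylase, ran from 5.04 through 5.71 to 9.67 in tumor-bearing livers and from 5.21 through 8.07 to 11.53 in controls. The ranges overlapped widely, but 23 of 25 pairs were lower, and the change was -2.11 ± 0.27 and -2.31 ± 0.23. Cyp3a16 (-1.04), Cyp39a1 (-0.97), Cyp3a44 (-0.82) and Cyp2b10 (-0.76) also fell over 25 pairs. Cyp1a2, which metabolises caffeine, fell over 23 pairs (-0.91 ± 0.09), where 25 pairs gave -0.55 ± 0.32 (adjusted p = 0.349). The abundant Cyp3a11 did not pass (0.05 over 23 pairs), and Cyp3a13 was the member that rose (1.08 and 0.68). Probe sets of such close gene families may share transcripts. Outside the lists Cyp2g1, a steroid hydroxylase, fell, with a change of -1.78 ± 0.26 and -2.01 ± 0.17, without overlap over 23 pairs.

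Conjugating and antioxidant enzymes fell at 9 of 36 genes over 25 pairs and at 30 over 23 (median -0.43), and none rose. Gsta2, a glutathione transferase, ran from 6.90 through 8.69 to 10.49 in tumor-bearing livers and from 8.49 through 11.33 to 12.12 in controls. The groups overlapped a little, and the change was -2.55 ± 0.19 (adjusted p = 5.54e-11) and -2.75 ± 0.14. Gstt3 fell, with a change of -1.57 ± 0.25, Sult1c2, a sulfotransferase, by -1.36, Gstt2 by -0.88 and Nqo1, a quinone reductase, by -0.43. The glutathione-synthesis gene Gclm (0.04), Srxn1 (0.05) and Txnrd1 (-0.14), like Nqo1 known targets of NRF2, did not pass over 23 pairs. Ugt2b37, a glucuronosyltransferase, fell, with a change of -2.42 ± 0.30.

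Zonation was read from 11 genes of the pericentral and 10 of the periportal lobule. Of the pericentral genes 3 fell and 1 rose over 25 pairs, and 9 fell and 1 rose over 23. Tbx3 (-0.46), Rhbg, an ammonia channel (-0.44), and Cyp2e1 (-0.13) fell at both numbers. The Tbx3 probe set highest in liver was not called (-0.15, adjusted p = 0.633), nor was Cyp2e1 when genes under the median level were left out (adjusted p = 0.102). Glul, glutamine synthetase, fell over 23 pairs (-0.26). Slc13a3, a dicarboxylate importer, rose by 1.62 ± 0.11, but 1 of its 4 probe sets gave 0.02 over 23 pairs. Of the periportal genes 2 rose and 1 fell over 25 pairs, and 2 rose and 4 fell over 23. Cdh1, E-cadherin, rose by 0.67 ± 0.12 and 0.57 ± 0.09, and Sox9 by 0.28 and 0.31. Over 23 pairs Cyp2f2 fell, with a change of -1.02 ± 0.15, as did Cyp17a1, given above, whereas Arg1 (-0.09) and Hal (-0.06) did not pass.

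Wnt2, a Wnt ligand of the liver endothelium, fell, with a change of -0.70 ± 0.11 in all 25 pairs, while its target Axin2 fell over 23 pairs only (-0.17).

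Respiratory chain and ATP synthase genes showed the largest gap of the 50 lists between 25 and 23 pairs. None of 24 passed over 25 pairs, and 23 fell over 23, with a median of -0.27 and no large change among them. Uqcrc2, a core protein of complex III, had a mean change of -0.01 ± 0.21 over 25 pairs and fell, with a change of -0.27 ± 0.04 over 23. Sdhb, of complex II, read -0.12 ± 0.26 and -0.43 ± 0.05. Of 29 genes of gluconeogenesis and amino acid catabolism 1 fell over 25 pairs and 17 over 23. Prodh, proline dehydrogenase, fell at both (-0.80 ± 0.23 and -1.08 ± 0.12), and Afmid (-0.78) and Oat (-0.66) over 23 pairs. The gluconeogenic Pck1 (0.09), G6pc (-0.46) and Fbp1 (-0.06) did not pass over 23 pairs. Of 8 urea cycle genes 4 fell over 23 pairs, with Asl at -0.33, and none over 25. Of 12 hepatocyte identity genes none passed over 25 pairs and 6 fell over 23, by between -0.08 (Cps1) and -0.25 (Tdo2), and Alb (0.01), Ttr (-0.02) and Hnf4a (-0.03) did not pass.

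In the growth hormone and IGF axis (20 genes) 1 rose and 2 fell over 25 pairs, and 1 rose and 5 fell over 23. Over 23 pairs this was 5.0% and 25.0%, against 13.7% and 16.6% of all genes. Egfr, the receptor of epidermal growth factor, rose by 1.34 ± 0.21 and 1.08 ± 0.11, with 0.15 to 1.15 among its 7 probe sets over 23 pairs. Igfbp3, the main carrier of IGF-1, fell, with a change of -1.20 ± 0.13, whereas Igf1 (-0.05) and Ghr (-0.09) did not pass over 23 pairs. Hsd3b5, a steroid dehydrogenase, fell, with a change of -0.94 ± 0.19 over 23 pairs. Igfbp1, a fasting-induced binding protein, varied widely (6.75 to 13.87 in tumor-bearing livers, 6.35 to 12.50 in controls) and did not pass (1.02 ± 0.35, adjusted p = 0.0689). Of 15 glucocorticoid response genes 3 rose over 25 pairs, among them Cdkn1a, the cell cycle inhibitor p21 (0.76), and Sgk1 (0.47), and over 23 pairs 4 rose and 5 fell. Fkbp5 (0.15) and Per1 (-0.06) did not pass over 23 pairs. Of 20 clock genes Nfil3 rose (0.50) and Usp2 fell (-0.77) over 25 pairs, and 11 fell and 1 rose over 23. Per2 (-0.40), Per3 (-0.60), Cry1 (-0.50) and Cry2 (-0.41) were among them, and Arntl (0.13) and Nr1d1 (-0.08) did not pass. The hour of collection was not used here.

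Stress genes rose in part. Of 23 genes of the ER stress and amino acid response 5 rose and 1 fell over 25 pairs, and 11 rose and 2 fell over 23. Chac1, which degrades glutathione, rose by 1.43 ± 0.14, Sdf2l1 by 0.92 and Xbp1 by 0.57, and Vldlr, the very low density lipoprotein receptor, fell, with a change of -1.50 ± 0.25. Ddit3 (-0.10) and Atf4 (0.02) did not pass over 23 pairs. Of 24 immediate early genes 8 rose and 2 fell over 25 pairs, and 11 rose and 2 fell over 23. Fos (1.11), Gadd45g (1.19), Egr1 (0.87) and Jun (0.82) rose, and Gadd45a fell (-0.68). Of 17 glycolysis and hypoxia genes 6 rose and 1 fell over 25 pairs, among them Ldha, lactate dehydrogenase (0.81), and Pkm (0.55), and 7 rose and 4 fell over 23. Egln3, an oxygen-sensing hydroxylase, fell, with a change of -1.19 ± 0.17 (-0.62 with the probe set highest in liver).

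Many genes of cell division rose. Of 27 genes of DNA replication 15 rose over 25 pairs, and 18 rose and 2 fell (Tk1 and Mcm10) over 23. Of 27 genes of mitosis 15 rose over 25 pairs and 23 over 23, and none fell. Mcm6, a subunit of the replicative helicase, ran from 6.13 through 8.20 to 9.99 in tumor-bearing livers and from 4.87 through 6.25 to 9.67 in controls. The ranges overlapped widely, yet it was higher in 23 of 25 pairs, by 1.37 ± 0.23 (adjusted p = 9.87e-05) and 1.25 ± 0.20. Of its 3 probe sets 1 gave 0.12 over 23 pairs. Mcm5 rose by 1.05 ± 0.21, with -0.10 at 1 of its 3 probe sets. Mki67, a marker of cycling cells, rose by 0.87 ± 0.16 and 0.95 ± 0.12, Ccnb2, a mitotic cyclin, by 0.98 ± 0.14 and Top2a by 0.78. Pcna (0.14) and Rrm2 (0.05) did not pass over 23 pairs. The cells that divide were not identified. Neutrophil and progenitor genes given here also rose. Across 25 pairs the changes of Ngp and Mcm6 gave r = 0.29 (two-sided permutation test, adjusted p = 0.346). The part of neutrophil and progenitor cells in this result was not tested.

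**Figure D2:**
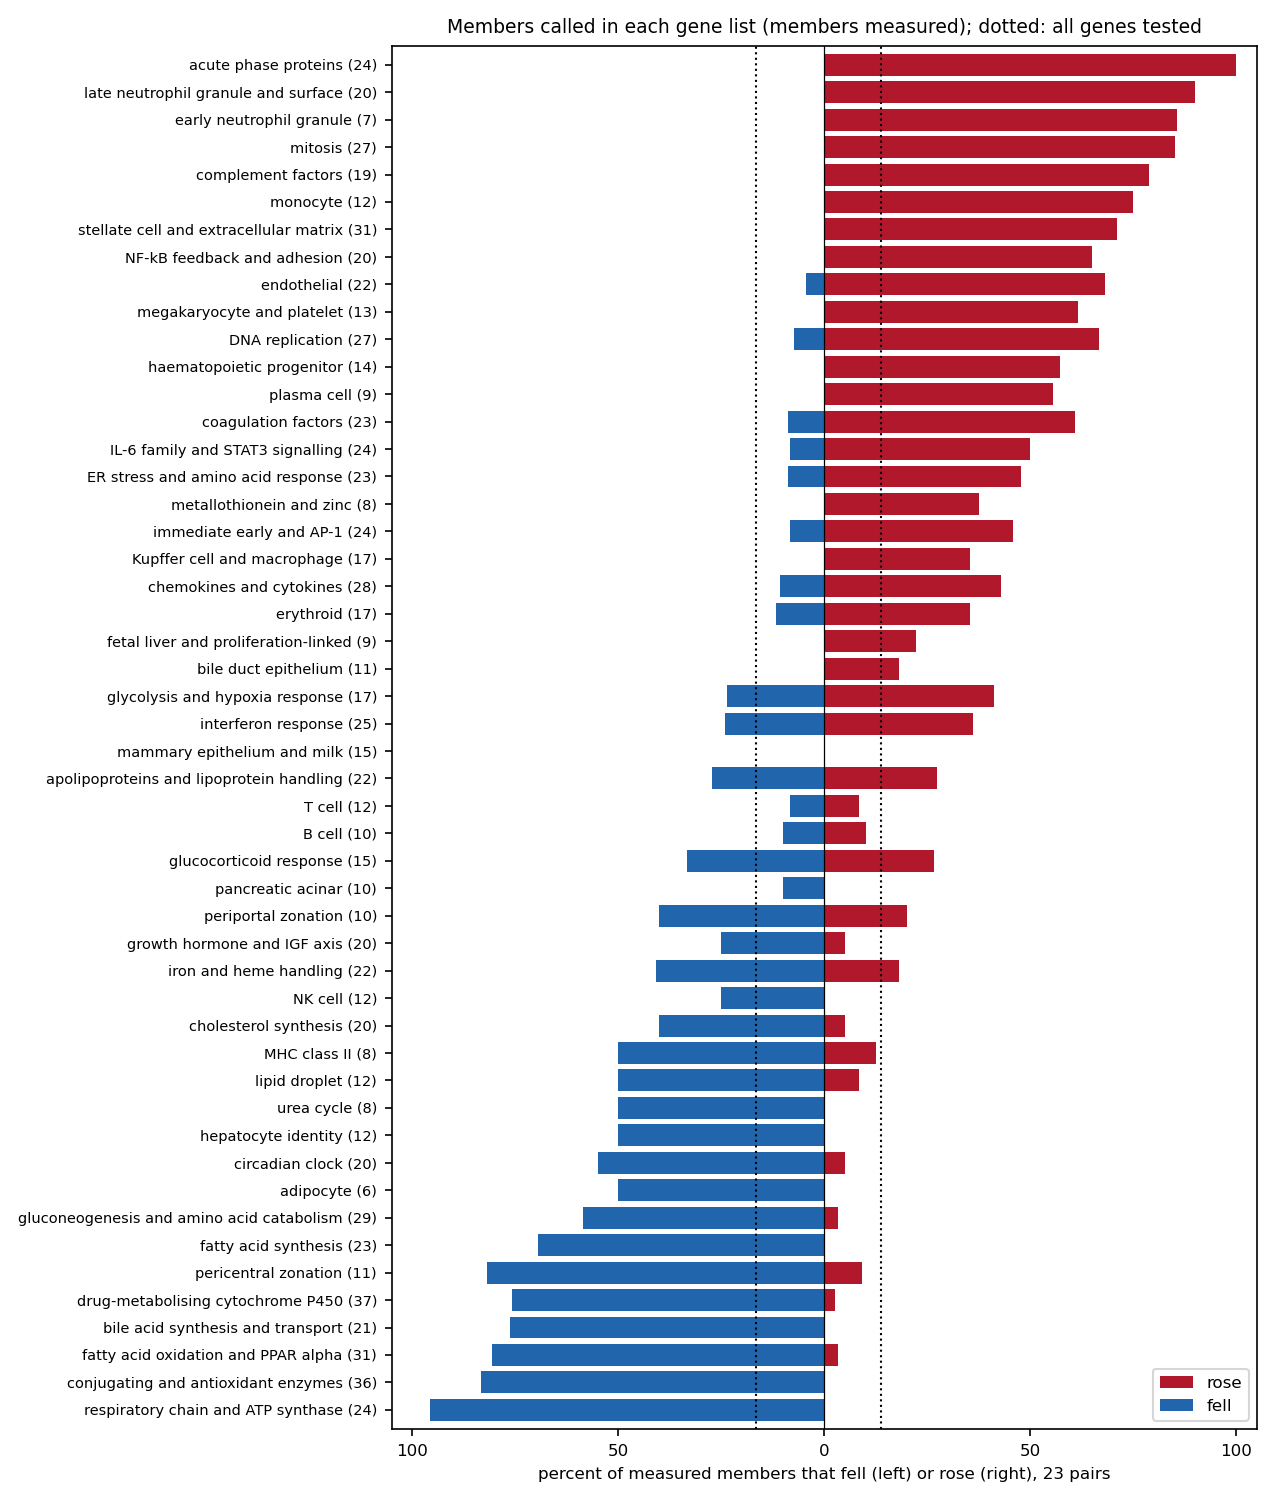
Percent of the measured members of each of 50 gene lists that rose (right) or fell (left) over 23 pairs, with the number measured in brackets and dotted lines at the shares of all 18193 genes tested (13.7% rose, 16.6% fell). All 24 acute phase genes rose and 23 of 24 respiratory chain genes fell, while none of 15 mammary epithelium genes was called.

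Genes of other blood cells were read beside the neutrophil genes. Of 12 monocyte genes 8 rose over 25 pairs and 9 over 23. Plac8 rose by 1.33 ± 0.21, Lyz2, lysozyme, by 1.12 ± 0.25, F13a1 by 1.00 and Itgam, the CD11b integrin, by 0.94, and several of these are also made by neutrophils. Ccr2, the receptor of inflammatory monocytes, did not pass (0.20 and 0.14). Of 17 Kupffer cell and macrophage genes 3 rose over 25 pairs and 6 over 23, and 11 rose when pair 17 was also left out. Cd163 (0.71), Msr1 (0.83) and Vsig4 (0.63) rose over 25 pairs, and the defining Clec4f (0.20) and Timd4 (0.10) did not pass over 23.

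Of 13 megakaryocyte and platelet genes 6 rose over 25 pairs and 8 over 23, with Ppbp at 0.96 ± 0.11 and Itgb3 at 0.69. Of 14 progenitor genes 5 rose over 25 pairs and 8 over 23. Cd34 rose by 0.90 ± 0.14, Kit, the stem cell factor receptor, by 0.87 ± 0.10 and Fli1 by 0.56, and Hoxa9 and Meis1 did not pass. Of 17 erythroid genes 2 rose and 1 fell over 25 pairs, and 6 rose and 2 fell over 23. Over 23 pairs this was 35.3% and 11.8%, against 13.7% and 16.6% of all genes. Slc4a1, the band 3 anion exchanger, rose by 1.13 ± 0.15 and 1.31 ± 0.10, but its probe set highest in liver was not called (0.45, adjusted p = 0.143). Alas2, which starts heme synthesis, rose by 0.74, whereas Car1, carbonic anhydrase 1, fell, with a change of -1.13 ± 0.14. Hba-a1, alpha globin, did not pass (0.00 and 0.08).

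Lymphoid cells were read from lists of T cell, B cell, plasma cell and NK cell genes. Of 12 T cell genes 1, Zap70, rose over 25 pairs (0.50, with 0.25 as the mean of its 3 probe sets), and Cd3e (-0.02), Cd4 (-0.03) and Cd8a (-0.25) did not pass over 25 pairs. Of 10 B cell genes 1, Ighm, rose over 25 pairs (0.66, but 0.16 and not called without probe sets shared with related sequence, adjusted p = 0.331), and Cd79a (-0.10) and Ms4a1 (0.04) did not pass. Over 23 pairs 8.3% of the T cell and 10.0% of the B cell genes rose, against 13.7% of all genes. Of 9 plasma cell genes 5 rose over 25 pairs and 5 over 23 (55.6%, against 13.7% of all genes over 23), and the list's mean change was above 0 in all 23 pairs. The risers included Jchain (0.86 ± 0.16) and Fkbp11 (1.23 ± 0.17, but -0.09 without probe sets shared with related sequence), whereas Mzb1 (-0.03) and Tnfrsf17 (-0.01) did not pass. Xbp1 and Fkbp11 are also genes of protein secretion in hepatocytes. Of 12 NK cell genes none rose and 3 fell over 25 pairs (2.28% of all genes fell) and over 23. Over 23 pairs these were 25.0% of the list against 16.6% of all genes, a nearby share. The cytotoxic genes Gzma (-0.38), Gzmb (-0.52 ± 0.13) and Prf1 (-0.32, but 0.03 with the probe set highest in liver) fell, whereas Ncr1 (-0.22) and Nkg7 (0.00) did not pass.

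Interferon response genes moved in both directions. Of 25 genes 6 rose over 25 pairs, and 9 rose and 6 fell over 23. Of all genes 13.7% rose and 16.6% fell over 23 pairs, so the share of falls was near that of all genes. The list's mean change was above 0 in 10 and below 0 in 13 of the 23 pairs. The risers included the antiviral Oas1a (0.80 ± 0.11 over 25 pairs), Oasl2 (0.50), Rsad2 (0.50) and Mx2 (0.39). The fallers over 23 pairs were Igtp (-0.86 ± 0.19), Gbp3 (-0.75), Gbp2 (-0.69), Psmb9 (-0.60), Tap1 (-0.46) and Irf1 (-0.33), which interferon gamma is known to induce. None of these 6 passed over 25 pairs. They were named after their values were seen, and a part of interferon gamma in their falls was not tested. Of 8 genes of MHC class II presentation 2 fell and none rose over 25 pairs, and 4 fell and 1 rose over 23. Ciita, their master regulator, fell (-0.48 and -0.41), as did H2-Ob (-0.60 and -0.51). The mean of the 3 Ciita probe sets was not called over 25 pairs (-0.27, adjusted p = 0.058). H2-Aa (-0.38) and H2-DMa (-0.49) fell over 23 pairs only, Ctss, the protease cathepsin S, rose over 23 pairs (0.24), and Cd74 (-0.27) did not pass.

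Many genes of the vessel wall and of matrix rose. Of 22 endothelial genes 10 rose and 1 fell over 25 pairs, and 15 rose and 1 fell over 23. Plvap, a protein of endothelial diaphragms, rose by 1.14 ± 0.18 and 0.89 ± 0.08, and Stab2, a sinusoidal scavenger receptor, by 1.08 ± 0.18 and 0.82 ± 0.07. Lyve1 (-0.10) and Flt1 (0.01) did not pass over 23 pairs. Of 31 stellate cell and matrix genes 18 rose over 25 pairs and 22 over 23, and none fell. Lum, the collagen-binding lumican, ran from 9.71 through 10.49 to 11.27 in tumor-bearing livers and from 5.65 through 8.99 to 9.63 in controls. It did not overlap and rose by 1.70 ± 0.21 and 1.41 ± 0.11. Col5a2, a fibrillar collagen chain, rose by 1.72 ± 0.14, though its 2 probe sets gave 0.32 and 1.70 over 23 pairs, and Col3a1 rose by 1.26 ± 0.17. Hgf, hepatocyte growth factor, rose by 1.10 ± 0.10. Lrat (-0.02) and Des (0.14), markers of quiescent stellate cells, and Acta2 (0.23), of activated ones, did not pass over 23 pairs.

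Few markers of tissues that could have entered the sample were called, but some of these lists varied between single livers. None of 15 mammary epithelium and milk genes passed at either number of pairs. Their mean level was 4.48 to 4.89 in tumor-bearing livers, and 4.43 to 5.11 in controls without the outlying arrays. Krt14 (-0.10) and Krt5 (0.00), keratins of the basal cells of mammary epithelium, did not pass. They do not speak to its luminal cells. Of 11 bile duct genes Sox9 (0.28) and Cdh1 (0.67) rose, and the keratins Krt7 (-0.12) and Krt19 (-0.09) did not pass over 23 pairs. Of 10 pancreatic genes Cela1 fell over 23 pairs (-0.71), and of 6 adipocyte genes 3 fell over 23 pairs only, with Adipoq (0.06) not passing. Of 9 fetal liver genes Cd24a rose (1.31), and Afp (0.10) and Gpc3 (0.06) did not pass.

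Several of the largest changes were in genes of no list, and these were taken by their rank. Armcx4, an armadillo repeat gene, ran from 7.73 through 9.55 to 10.20 in tumor-bearing livers and from 4.75 through 5.18 to 5.80 in controls. The groups did not overlap, and it rose by 4.12 ± 0.12, or 17.4-fold (adjusted p = 2.38e-20), at either number of pairs. Cyb561, a transmembrane electron carrier of secretory granules, ran from 6.31 through 8.83 to 9.81 against 4.20 through 4.66 to 7.85 and rose by 3.83 ± 0.19. The groups overlapped, with controls reaching 6.52 when the outlying arrays were left out. Clca3a1, Kcnt2, a sodium-activated potassium channel, and Slc41a2, a magnesium transporter, rose by 3.05 ± 0.14, 2.99 ± 0.20 and 2.77 ± 0.19. Among the falls were Pctp, a phosphatidylcholine carrier (-2.19 ± 0.18, lower in 25 of 25 pairs), Serpinb1a (-1.77 ± 0.23), Akr1c19 (-1.65 ± 0.20) and Retsat, a retinol saturase (-1.52 ± 0.22). Esrrg, an orphan nuclear receptor, fell, with a change of -1.61 ± 0.16 in all 25 pairs, but its probe sets ranged from -1.70 to 0.02 over 23 pairs. BC023105 fell, with a change of -1.64 ± 0.36 with widely spread controls (8.27 to 13.41).

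**Figure D3:**
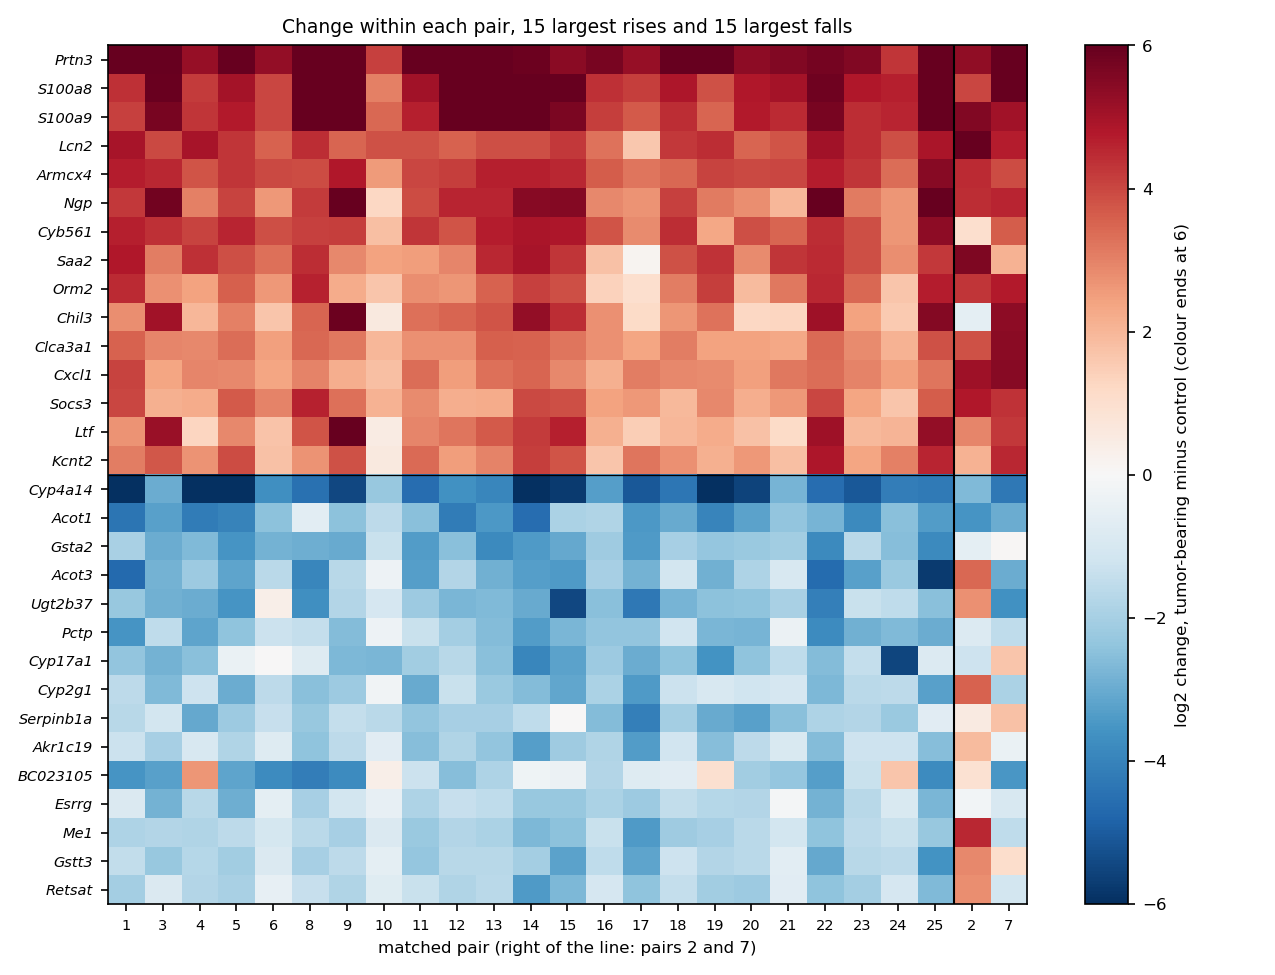
Change within each pair (log2, tumor-bearing minus control; colour scale ends at 6 in either direction) of the 15 genes with the largest rise and the 15 with the largest fall among those called and moved the same way in at least 20 of 25 pairs. Pair 10 is pale for Ngp (1.23), Chil3 and Ltf (0.49), pair 17 for Saa2 (0.16), and the column of pair 2 turns red for Me1 (4.54) and other falling genes.

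The size of the change differed between pairs. Ngp changed by between 1.23 (pair 10) and 6.47 (pair 9), Mpo by between 0.30 (pair 10) and 5.25 (pair 9), and Saa2 by between 0.16 (pair 17) and 5.59 (pair 2). Pair 10 was lowest for both neutrophil lists and also had the smallest fall of Cyp4a14 (-2.28). Of the 48 other arrays, those that correlated least with the median liver array were the control of pair 8 and the tumor-bearing array of pair 17, both at 0.961. The actin 3'/5' ratio of the pair 17 array was the highest of the 48 (1.05), and that of the pair 8 array was 0.58. The part of these arrays in the results was not tested beyond leaving them out. Pair 8 had the largest fall of Hamp and the largest rise of S100a8 (8.33). Pair 17 was lowest for the means of many hepatocyte lists, among them fatty acid oxidation (-1.44), conjugation (-1.35) and acute phase proteins (0.05). Without pairs 2, 7 and 17 2902 genes rose (16%) and 3167 fell (17.4%), and without pairs 2, 7 and 8 2516 rose and 3250 fell. In all 23 pairs the mean change was above 0 for the acute phase and neutrophil lists and below 0 for fatty acid oxidation, bile acid, P450, conjugation and respiratory chain genes.

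Changes of 6 genes, chosen to stand for 6 roles, were correlated across pairs in 15 relations. None passed after adjustment for 15 tests (smallest adjusted p = 0.22 over 25 pairs, 0.0982 over 23, two-sided permutation test). By Pearson r over 25 pairs the largest was between Ngp and Socs3, at 0.49 (p = 0.0147, adjusted p = 0.22). Their Spearman rho was 0.42 (p = 0.0387, adjusted p = 0.29), and r was 0.46 without the 2 pairs farthest from the median. This r was 0.84 in the earlier and 0.40 in the later ID run. By Spearman rho the largest was between Saa2 and Socs3, at 0.48 over 25 pairs (adjusted p = 0.244) and 0.56 over 23 (adjusted p = 0.0982). Socs3 and Cyp4a14 gave r = -0.23 (p = 0.26, adjusted p = 0.411) and rho = -0.30 (p = 0.149, adjusted p = 0.387) over 25 pairs, with r = -0.47 without the 2 farthest pairs. Over 23 pairs their r was -0.46 (p = 0.0274, adjusted p = 0.137).

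The numeric sample IDs fell into an earlier run of 10 pairs and a later run of 15, told apart by their first 6 digits; what the runs stand for is not given in the sources used here. Both outlying arrays belong to the earlier run. Within the earlier run 85 genes rose (0.467%) and 10 fell (0.055%), against 628 (3.45%) and 650 (3.57%) in its 8 pairs without the outlying arrays. In the later run 2209 rose (12.1%) and 2120 fell (11.7%). In the 8 earlier and 15 later pairs the changes were 4.58 and 5.59 for S100a8, 3.41 and 3.58 for Saa2, 2.89 and 2.89 for Socs3 and -5.60 and -4.27 for Cyp4a14. The median change of the early granule list was 0.82 in these earlier and 1.84 in the later pairs, and that of the late granule list 0.94 and 1.60. The median of the acute phase list was 0.64 in both. A test of the difference between the runs with limma called no gene. At an unadjusted p under 0.05 it gave 771 genes (4.24%) over 25 pairs and 1150 (6.32%) over 23, with smallest adjusted p values of 0.577 and 0.733.

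The liver's changes were then set against those of spleen and blood cells, each from 25 pairs, as differences of within-pair changes. The labels do not say which arrays of different tissues come from 1 mouse, and the test treats them as independent. The liver's change was higher than the spleen's for 2029 genes (11.2%) and lower for 1778 (9.77%), and against blood it was higher for 1245 (6.84%) and lower for 946 (5.2%). Without pairs that hold an outlying array of their tissue, these counts were 3836 (21.1%) and 4636 (25.5%) against spleen and 2561 (14.1%) and 2535 (13.9%) against blood. As an alternative, pairs of different tissues were linked by the start and order of the sample IDs. This gave 1892 higher and 1666 lower against spleen, and 1277 and 957 against blood.

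**Figure D4:**
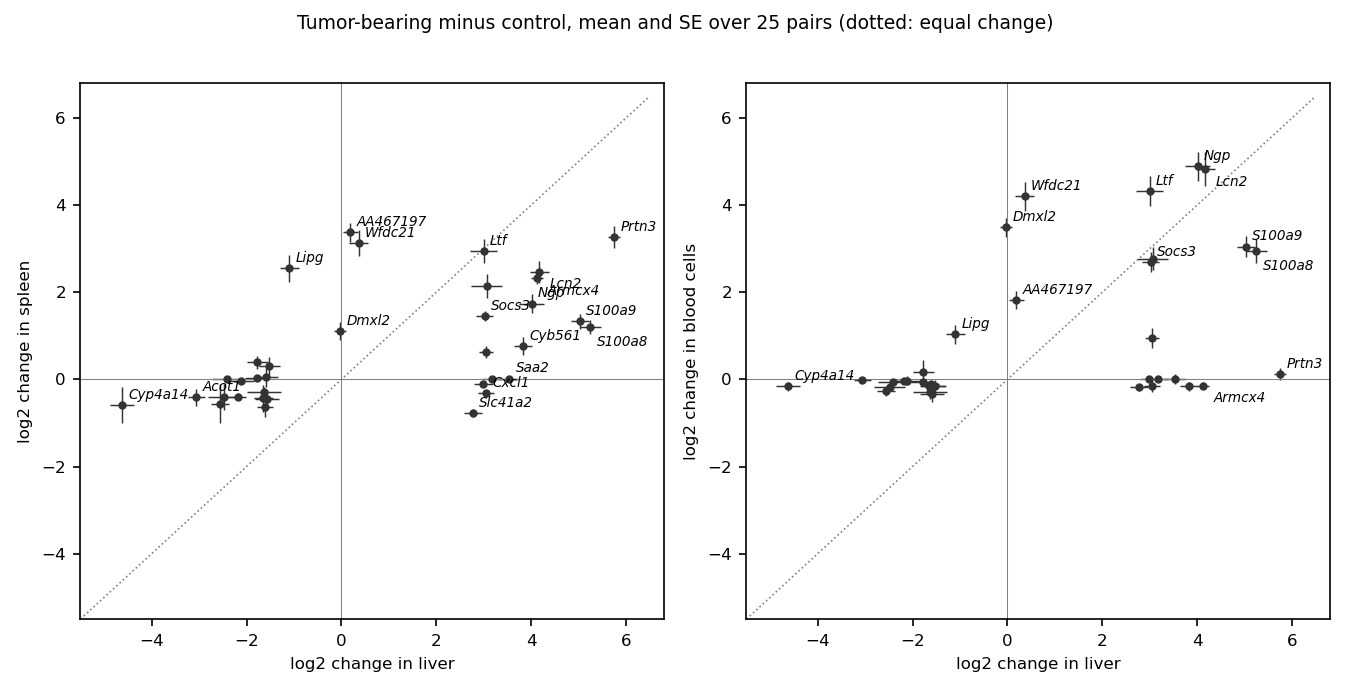
Change in liver (x axis) against the change in spleen (left) and blood cells (right), log2 with SE over 25 pairs, for the largest liver changes and the genes that differ most between tissues. Ngp (4.89), Lcn2 (4.83) and Ltf (4.32) lie above the line of equal change in blood, Prtn3 and Armcx4 lie near 0 in blood, and Wfdc21 and Dmxl2 lie near 0 in liver.

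The neutrophil genes were also compared with their changes in spleen and blood. Prtn3 changed by 3.27 ± 0.26 in spleen and 0.12 ± 0.14 in blood, so its liver change was larger by 2.48 ± 0.28 and by 5.63 ± 0.18 (limma, adjusted p = 9.16e-31 against blood). Mpo changed by 2.80 in spleen and 0.06 in blood, and its liver change did not differ from the spleen's beyond its error (-0.48 ± 0.40, adjusted p = 0.414). Elane and Ctsg changed more in spleen than in liver, with differences of -1.28 ± 0.33 and -1.91 ± 0.39. The late genes Ngp, Lcn2 and Ltf changed by 4.89, 4.83 and 4.32 in blood. For Ltf the blood exceeded the liver (-1.32 ± 0.44, adjusted p = 0.0394), and for Ngp and Lcn2 no difference from blood was called over 25 pairs (-0.88 ± 0.42 and -0.66 ± 0.43). Lcn2 was called lower than blood without the outlying pairs (-0.93, adjusted p = 0.0247). S100a8 and S100a9 changed more in liver than in spleen (4.05 ± 0.28 and 3.70 ± 0.27) and more than in blood (2.30 ± 0.35 and 1.98 ± 0.30).

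Some liver changes were near 0 in the other tissues. Saa2 changed by 0.02 in spleen and 0.01 in blood, and Cyp4a14 by -0.59 ± 0.42 and -0.16 ± 0.11. Cxcl1 changed by -0.31 in spleen and -0.16 in blood against 3.05 in liver. Hp, by contrast, changed by 3.52 in spleen and 2.86 in blood against 0.80 in liver. The change of Socs3 was 1.45 in spleen, 2.70 in blood and 3.02 in liver, and the liver did not differ from blood beyond its error (0.33 ± 0.29, adjusted p = 0.551). Stat3 changed by -0.03 in spleen, 1.10 in blood and 1.23 in liver. Armcx4 followed Prtn3, with 2.33 ± 0.14 in spleen and -0.14 ± 0.08 in blood, and Cyb561 changed by 0.77 and -0.16.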

How the data were processed

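Total RNA of whole liver was measured on Affymetrix whole-genome mouse arrays. The authors deposited linear probe set intensity values, already summarised and normalized; the method is not given in the sources used here. The liver array medians lay between 42.2 and 61.7 intensity units. No array was left out or imputed in the comparison over 25 pairs. The number of arrays limits the precision, and an array holds no count of reads.

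A floor of 11.3 (the 5th percentile over the series) was set on intensity before log2. The array's 45101 probe sets comprised 34958 that name 1 gene, 932 that name several and 9211 without a name here; 64 control probe sets were kept for RNA quality only. Symbols were updated to RefSeq names (GRCm38.p6) through the Entrez gene number for 34754 probe sets, and 204 were kept as listed. Each of 18193 genes was represented by its brightest probe set (mean of 250 arrays), and levels are never compared between probe sets.

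The test was limma's moderated paired comparison (limma 3.58.1, R 4.3.3, a term for each pair), with p-values adjusted by Benjamini-Hochberg over 18193 genes. The pairing comes from the labels. After removal of group means, the arrays of a pair correlated at a median of 0.31 (over 0.1 in 20 of 25 pairs), against 0.011 for other pairings. Differences from spleen and blood, and between ID runs, were tested with limma on within-pair differences. Ratios and relations across pairs used two-sided permutation tests with 100000 draws. The fits were tested on simulated data. The limma p-values weigh a mean within-pair change against its spread over these pairs of mice, moderated across genes. The SE of a liver gene change or of a tissue difference is moderated likewise, and other SE values are not.

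The comparison, the 50 gene lists (969 genes, 881 measured) and the rules were chosen with earlier results of these data known, so none is independent support. Named were Erbb2, the 15 largest rises and 15 largest falls among genes called and moved alike in at least 20 pairs, up to 6 called members of each list with any others as examples that did not pass, and the genes that differed most between tissues. Members named beyond this, and those that passed over 23 pairs only, were chosen after their values were seen. Alternatives varied the pairs, the block, the scaling, the floor, the choice of probe set, array weights and robust regression. Promoters were read from RefSeq and searched in Python 3.11.15 with pandas 2.3.3, numpy 2.4.6 and scipy 1.17.1. The windows of Cyp4a14, Cyb561 and Id1 were not used here.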

Additional observations from a re-analysis of the deposited data

Results flagged for a closer look

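The following 12 differences between tissues were tested with limma on within-pair changes (25 pairs in each tissue) and are given as the liver's change minus that of the other tissue. Against spleen, the liver's change was higher by 4.05 for S100a8, 3.70 for S100a9 and 3.54 for Slc41a2, a magnesium transporter. It was lower for Cyp4a14 (-4.04), for Lipg, endothelial lipase (-3.65), and for AA467197 (-3.19). AA467197 changed by 3.38 ± 0.22 in spleen and 0.19 in liver, and Lipg by 2.55 ± 0.31 in spleen and -1.10 ± 0.20 in liver. Against blood cells, the liver's change was higher by 5.63 for Prtn3, 4.26 for Armcx4 and 3.99 for Cyb561. It was lower for Cyp4a14 (-4.47), Wfdc21 (-3.83) and Dmxl2 (-3.52). Wfdc21 changed by 4.20 ± 0.34 in blood and 0.37 ± 0.20 in liver, and Dmxl2 by 3.49 ± 0.22 and -0.03. Without the pairs that hold an outlying array of their tissue the differences kept their direction, with 4.15 for S100a8, -4.74 and -4.58 for Cyp4a14 against spleen and blood, and 5.62 for Prtn3.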

How the results depend on the processing

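Over 25 pairs 1436 genes rose and 415 fell. Without the 2 outlying control arrays 2484 genes rose and 3027 fell, with array weights 3459 and 3673, and with robust regression 4384 and 4804. Without pair 2 alone 1994 rose and 1398 fell, and without pair 7 alone 1464 and 578. The earlier ID run gave 85 and 10, the later 2209 and 2120, and the 8 earlier pairs without the outlying arrays 628 and 650. Falls numbered 741 after quantile normalization and 1034 after median centring, and 215 when genes under the median level were left out, which tests fewer genes. Further settings chosen after seeing the data started from the 23 pairs. With quantile normalization they gave 2837 and 3547, without pair 17 as well 2902 and 3167, without pair 8 as well 2516 and 3250, and with no block for the pair 2139 and 2615. Over 25 pairs the fit with no replicate block gave 1334 and 381. The floor, the choice of probe set and the pair with another title prefix kept both counts within 1.5 times. Without outlying pairs the liver's change was called higher and lower than the spleen's for 3836 and 4636 genes, and than the blood's for 2561 and 2535.

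Of 191 named genes that were called, 187 kept their direction under those of 22 settings in which they could be tested. All settings covered 148 of them, since leaving out genes under the median level kept 151 and leaving out shared probe sets kept 187. The others were Ms4a3 in the earlier run (-0.03), Fosl2 (-0.16) and Prf1 (0.03) with the probe set highest in liver, and Fkbp11 (-0.09) without probe sets shared with related sequence; the cause was not tested. In the earlier run 155 of the 191 lost their call, and 65 did in its 8 clean pairs. Quantile normalization ended 16 calls and median centring 13. The probe set highest in liver ended 7 calls and turned 2, the mean of all probe sets ended 10, and leaving out shared probe sets ended 6 and turned 1. The Gapdh 3'/5' difference was -0.048 over 25 pairs and 0.00043 over 23. Relations that turned sign without the outlying pairs were Saa2 with Mcm6 (-0.16), Socs3 with Mcm6 (-0.02), Cyp4a14 with Hamp (-0.09) and Mcm6 with Hamp (-0.02). None of these had passed.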
